A study of Mus musculus with 6 samples.

Results

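The nuclear genes for subunits of the oxidative phosphorylation complexes were examined in RNA-Seq of mouse sciatic nerve. Members were chosen by gene symbol alone, as every symbol of Nduf followed by a, b, c, s or v and a number, of Sdha to Sdhd, of Uqcr, of Cox5 to Cox8 with a letter and at most a number after it, and of Atp5 with the same, which gave 79 of 24015 genes. The pattern leaves out Cox4i1, Cox4i2 and some others, which were tested as a list of their own. By their symbols, 36 members were counted to complex I, 4 to complex II, 8 to complex III, 15 to complex IV and 16 to complex V. The 16 include Atp5s, which is not a structural subunit. After a filter on low counts, 69 members were tested among 11371 genes.

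Sciatic nerves were taken at postnatal day 14 from control mice (ctrl, Rnf40 fl/fl without a Cre transgene) and from mice with deletion in Schwann cells (cko, Dhh::Cre with Rnf40 fl/fl). Each genotype gave 3 libraries, each made from a pool of nerves, and no animal was treated. Dhh::Cre acts in the Schwann cell lineage, so that the other cells of the nerve keep Rnf40. The labels give a mixed 129SvJ/C57Bl/6J background and an NEB Next Ultra kit, whereas the methods name a C3H x C57Bl/6J background and a directional NEXTFLEX kit, and the difference could not be settled from the counts. Library totals were 1317167, 1992622 and 2468765 counts in ctrl replicates 1 to 3, and 2184268, 1459387 and 2186710 counts in cko replicates 1 to 3.

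Oxidative phosphorylation passes electrons from NADH through complex I, or from succinate through complex II, to ubiquinone, and then through complex III, cytochrome c and complex IV to oxygen. Complexes I, III and IV pump protons across the inner mitochondrial membrane, and complex V (ATP synthase) uses the gradient to make ATP. Schwann cells use mitochondrial metabolism to make and maintain myelin, while skeletal muscle, which lies close to the nerve, is very rich in mitochondria and carries its own isoforms of several complex IV subunits.

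Rnf40, which encodes a subunit of the ligase that ubiquitinates histone H2B, was looked at first as a check of the labels. Its normalized counts were 130.2, 126 and 142 in ctrl and 90.2, 90.4 and 94.2 in cko libraries. All cko libraries lay below all ctrl libraries, and the log2 fold change was -0.54 (SE 0.14, adjusted p = 0.00243 by the quasi-likelihood test of edgeR, adjusted after Benjamini and Hochberg over all genes tested). With scaling by total counts it was -0.27 and was not called (adjusted p = 0.116, over all alternatives 0.00235 to 0.116). The counts cover the whole gene, including exons outside the deleted part and RNA of cells without Cre. Normalized counts here are counts divided by the effective library size (scaled by TMM) and multiplied by the mean effective size, and CPM are the same counts scaled to a fixed effective size (counts per 1e6).

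The tissue label was compared with marker lists. All 7 Schwann cell markers were detected in every library. Their summed level was 136427, 156314 and 147960 CPM in ctrl and 38849, 36782 and 37269.6 CPM in cko libraries. All 7 were called lower in cko, with a median log2 fold change of -1.59. Among them were Pmp22 (-2.13), a protein of compact myelin, and Mbp (-1.63), the myelin basic protein. From bulk RNA alone, fewer cells of a type and less RNA per cell cannot be told apart. In stained nerve sections, the paper found that Schwann cells made up a comparable share of the cells in both genotypes.

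Skeletal muscle RNA differed greatly between libraries. The summed level of 31 muscle markers was 6183, 4825 and 3580.3 CPM in ctrl, but 201 and 439 CPM in cko replicates 1 and 2, and 4671 CPM in cko replicate 3. Hence cko replicate 3 lay within the ctrl range, and cko replicates 1 and 2 lay far below it. The markers detected were 31, 31 and 30 of 31 in ctrl, and 28, 30 and 31 of 31 in cko libraries. Myh4, a fast myosin heavy chain, was the most abundant marker in the ctrl libraries and cko replicate 1, and Acta1, skeletal muscle actin, in cko replicates 2 and 3. The normalized counts of Acta1 were 1794, 1408 and 1069 in ctrl and 36.4, 141 and 1676 in cko libraries. Myh4 had 2717, 1805 and 1352 normalized counts in ctrl and 48.0, 55.5 and 1175 in cko libraries. Atp2a1, the calcium pump of fast fibres, had 1145, 981 and 655 in ctrl and 17.4, 51.8 and 740.5 in cko libraries.

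Of 28 muscle markers tested, 0 were called by edgeR with all 6 libraries, 0 passed an unadjusted p of 0.05 and 0 were called by DESeq2, while their median log2 fold change was -1.18. Without cko replicate 3, 24 of the 28 were called lower and their median was -3.85. Counts and medians of the members and of each complex, and the changes of the called members described, are therefore given with and without cko replicate 3.

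**Figure D1:**
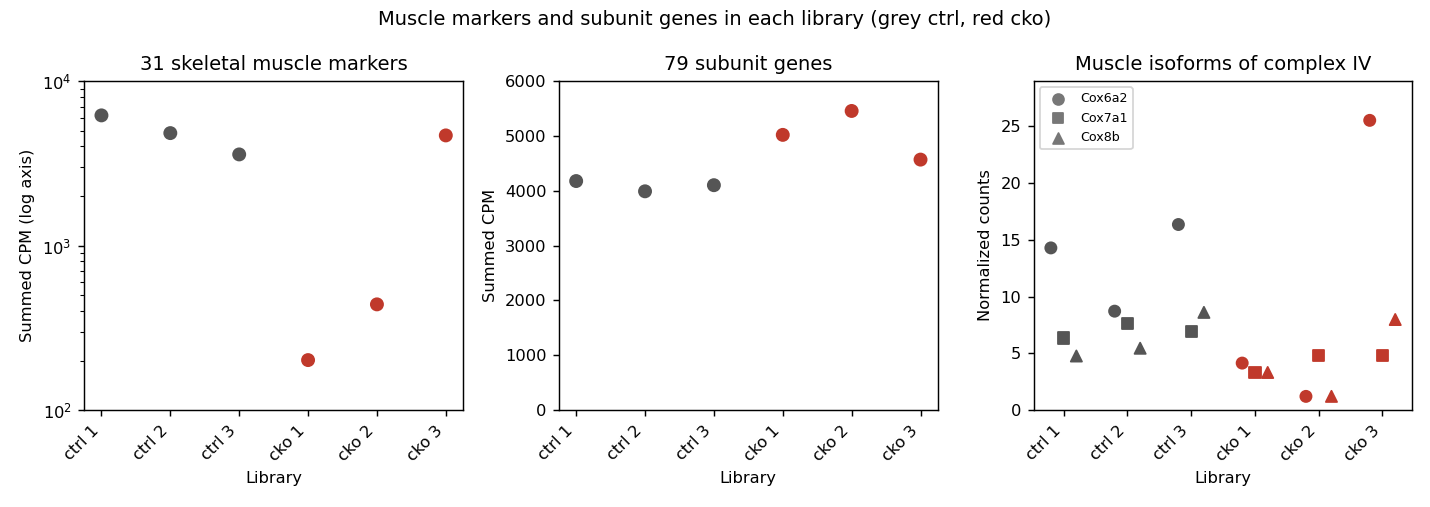
Summed CPM of 31 skeletal muscle markers (left, log axis), summed CPM of the 79 subunit genes (middle) and normalized counts of the muscle isoforms Cox6a2, Cox7a1 and Cox8b (right) in each library, with ctrl in grey and cko in red. Muscle markers were at 201 and 439 CPM in cko replicates 1 and 2 and at 4671 CPM in cko replicate 3, whereas the summed level of the subunit genes was higher in every cko than in every ctrl library.

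Summed over all 79 members, the subunit genes reached 4176, 3989 and 4101 CPM in ctrl and 5018, 5454 and 4567 CPM in cko libraries. Every cko library was thus above every ctrl library, and cko replicate 3, which was rich in muscle RNA, was the lowest of the cko libraries. The means were 4089 ± 94.1 CPM in ctrl and 5013 ± 444 CPM in cko (SD, n = 3), a ratio of 1.23. Leaving out cko replicate 3, the ratio was 1.28. As a share of the deposited counts the members took 0.388%, 0.357% and 0.375% in ctrl and 0.539%, 0.602% and 0.508% in cko libraries. The highest value of a tested member fell in cko replicate 1 for 22, in cko replicate 2 for 23 and in cko replicate 3 for 8 of the 69 members, compared with 8, 5 and 3 members for ctrl replicates 1 to 3. Over all genes tested these shares were near even, between 14.4% and 19.6% for each library.

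Among the 69 members tested, 16 were called higher in cko (23.2%) and 1 was called lower (1.45%). Calls required an adjusted p of at most 0.05 over all 11371 genes. The same test called 15.5% of all genes higher and 16.2% lower. At an unadjusted p of 0.05, 24 members were higher and 1 was lower, against 20.3% and 20.7% of all genes. The share of higher calls was thus somewhat above that of all genes, and the share of lower calls was far below it. Of the members, 54 had a positive and 15 a negative log2 fold change, with a median of 0.24, against -0.0024 for all genes. In 25 members every cko library was above every ctrl library, which held for 22% of all genes, and in 1 member every cko library was below, which held for 21.6%.

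The study's limits for a deregulated gene (absolute log2 fold change of at least 0.8, mean normalized count of at least 20, and a P of at most 0.05, which is taken here as an adjusted p) were passed by 3 members, all higher and all named for complex I. These limits were passed upwards by 3.73% and downwards by 5.05% of all genes. The count fell to 0 without cko replicate 2, where 937 of 11634 genes passed in either direction. It rose to 5 without cko replicate 3, where 1176 of 11499 genes passed, against 998 of 11371 with all libraries. Under total counts 11 members passed, with 6, 3, 1 and 1 in complexes I, III, IV and V, as did 1278 of 11371 genes. Among the cko libraries, replicate 3 was the lowest for 14 of the 16 members called higher and the highest for 1. In a fit with the log2 muscle level of each library as a covariate, 5 members were called higher and 2 lower (among them Ndufa13 at -0.70 with an adjusted p of 0.00261, which ran from 0.00261 to 0.792 over its alternatives), with a median of 0.20 against -0.0066 for all genes, and 0 passed the study's limits. In this fit 941 of 11371 genes passed those limits, in either direction. It called 10.2% of all genes higher and 11.4% lower, so that the members' share of higher calls (7.25%) was below that of all genes. The 5 were Ndufa4, Ndufb10, Uqcr11, Cox7a2 and Atp5g3, so that 11 of the 16 higher calls were lost in that fit. Genotype and muscle level overlap in it, and the part of muscle RNA in the changes was not tested further.

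Without cko replicate 3, 20 of 69 members were called higher and 2 lower, compared with 16.7% and 17.3% of all genes, and 14 of the 16 higher calls remained. The median was 0.26. Scaling by total counts moved the median of all genes by 0.27 on the log2 scale, called 39 members higher and 0 lower (0 lower also at an unadjusted p of 0.05), and called 32.9% of all genes higher and 7.79% lower. Relative to the median of all genes, the members' median was 0.25 under TMM and 0.25 under total counts, and 54 of 69 members were above the median of all genes under each scaling. By complex, I to V, the higher calls under total counts were 15, 3, 6, 6 and 9. DESeq2, which kept 73 members, called 8 of them higher (11%) and 0 lower (1 lower at an unadjusted p of 0.05), against 7.88% and 8.43% of all genes. These 8 were all among the 16.

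**Figure D2:**
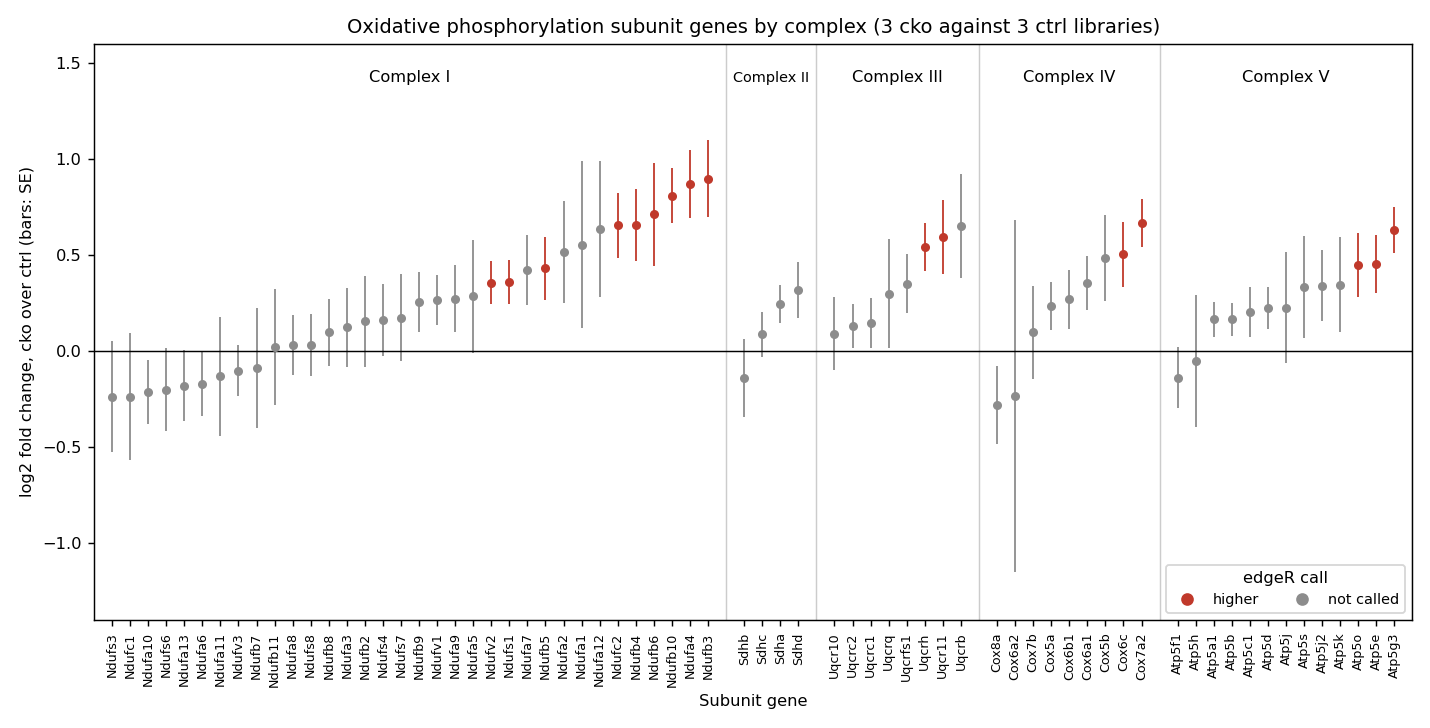
Log2 fold change (cko over ctrl, points) with its standard error (bars) for 68 of the 69 members tested, grouped by complex and sorted within each. The 16 members called higher (red) lie in complexes I, III, IV and V, and no member of complex II was called.

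Complex I, the NADH dehydrogenase, summed to 1426, 1373 and 1378 CPM in ctrl and 1785, 1931 and 1488 CPM in cko libraries. All cko libraries were above all ctrl libraries, with cko replicate 3 closest to ctrl. This rests on Ndufa4, without which the sum (chosen after seeing the data) was 1217, 1182 and 1173 CPM in ctrl and 1426, 1459 and 1210 CPM in cko libraries. Then cko replicate 3 lay within the ctrl range, and the ratio of means fell from 1.25 to 1.15. Of 35 members tested, 9 were called higher (25.7%) and 1 lower (2.86%), against 15.5% and 16.2% of all genes, with a median log2 fold change of 0.17. For the other complexes and lists, and for the other fits reported for them, the shares of all genes are those given above. The 7 core subunits, which carry the flavin and the iron-sulfur clusters, gave 2 higher and 1 lower call and a median of 0.17. The 28 members outside the core gave 7 higher and 0 lower calls and a median of 0.21. They were counted as accessory subunits, which surround the core and are needed for its assembly and stability. Among them is Ndufa4, called higher, which has since been assigned to complex IV. Complex I as a whole had 11 members higher and 1 lower at an unadjusted p of 0.05, and 4 higher and 0 lower by DESeq2. Without cko replicate 3 it had 10 higher and 1 lower and a median of 0.30, and with the muscle covariate 2 higher and 2 lower and a median of 0.085.

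Ndufb3, an accessory subunit of the membrane arm, showed the largest log2 fold change of the called members. It had 41.3, 39.2 and 36.2 normalized counts in ctrl and 76.2, 85.6 and 56.7 in cko libraries. The ctrl libraries were tightly grouped, and each cko library was above them. The means were 38.9 ± 2.58 and 72.8 ± 14.8 (SD, n = 3), a 1.86-fold increase with a log2 fold change of 0.90 (SE 0.20, adjusted p = 6.14e-04 by edgeR). The change was 1.07 without cko replicate 3, and the call remained with each library left out, the highest adjusted p being 0.0113. With the muscle covariate it was 0.62 with an adjusted p of 0.075, and over all alternatives the adjusted p ran from 1.65e-05 to 0.075. The gene lies at chr1:58643228-58652808 in mm9.

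Ndufa4 was first purified with complex I and has since been assigned to complex IV. It was the most abundant member per transcript length, at 409 ± 18.9 CPM per kb in ctrl and 751 ± 198 CPM per kb in cko libraries. Its normalized counts were 405, 370.4 and 397 in ctrl and 697, 916 and 539 in cko libraries. All cko libraries were above all ctrl libraries, but the cko libraries differed widely among themselves, with replicate 2 highest and replicate 3 lowest. The log2 fold change was 0.87 (SE 0.18, adjusted p = 0.00574 by edgeR), and 1.05 without cko replicate 3. It remained called under all alternatives, with log2 fold changes between 0.55 and 1.14. Ndufa4 lies at chr6:11850373-11857446 in mm9.

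Ndufb10, an accessory subunit with disulfide bonds that is imported into the intermembrane space, had the smallest adjusted p of the members. Its normalized counts were 87.3, 89.3 and 96.4 in ctrl and 163, 189 and 133 in cko libraries. The groups did not overlap. The means were 91.0 ± 4.76 and 162 ± 28.0 (SD, n = 3), with a log2 fold change of 0.81 (SE 0.14, adjusted p = 2.6e-05 by edgeR). It was 0.94 without cko replicate 3. Over all alternatives it ranged from 0.58 to 1.08 and remained called. Ndufb10 lies at chr17:24859005-24861423 in mm9.

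**Figure D3:**
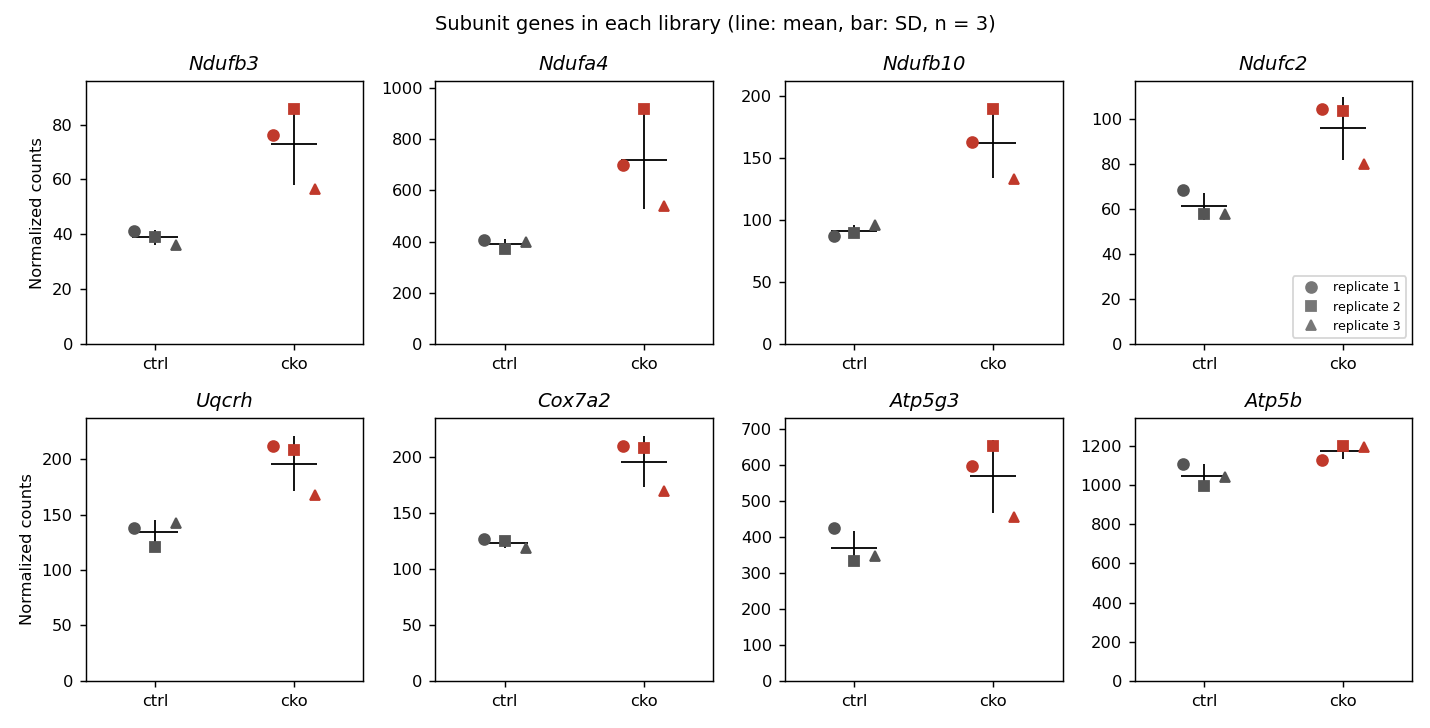
Normalized counts of 8 members in each library (replicate 1 circle, 2 square, 3 triangle), with ctrl in grey and cko in red, the mean as a line and the SD as a bar (n = 3). Ndufb3, Ndufa4, Ndufb10, Ndufc2, Uqcrh, Cox7a2 and Atp5g3 were higher in every cko than in every ctrl library with cko replicate 3 lowest of the cko libraries, and Atp5b differed by little.

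Other membrane arm subunits of complex I were called higher as well. Ndufb6 had 28.6, 20.7 and 18.1 normalized counts in ctrl and 43.1, 36.2 and 27.9 in cko libraries, so that cko replicate 3 fell just below ctrl replicate 1. Its log2 fold change was 0.71 (SE 0.27, adjusted p = 0.039 by edgeR), and its call was lost in 4 of 6 fits with a library left out, namely those without ctrl replicate 2 or 3 or cko replicate 1 or 2, with an adjusted p of up to 0.2. It was 0.89 without cko replicate 3, and DESeq2 and the muscle covariate (0.40) also ended the call (adjusted p over all alternatives 0.00358 to 0.464). In addition, 39.0% of its exonic bases are shared with a gene on the opposite strand in the GENCODE annotation of mm9, and the strand setting of the counting is not given in the sources used here. Ndufb6 lies at chr4:40217624-40226454.

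Except for Cox7a2, all called members described from here on were picked with their values in view. Ndufc2 had 68.3, 57.7 and 57.7 normalized counts in ctrl and 104, 104 and 79.8 in cko libraries, without overlap. Its log2 fold change was 0.66 (SE 0.17, adjusted p = 0.00272 by edgeR), and 0.79 without cko replicate 3. With the muscle covariate Ndufc2 was at 0.43 and was not called (adjusted p = 0.152, over all alternatives 4.26e-05 to 0.152). Ndufb4 had 52.4, 63.2 and 48.2 in ctrl and 99.4, 97.7 and 63.0 in cko libraries, where cko replicate 3 lay within the ctrl range. The log2 fold change of Ndufb4 was 0.66 (SE 0.19, adjusted p = 0.00689 by edgeR), and its call was lost without ctrl replicate 3 or cko replicate 1 (adjusted p up to 0.0744). Ndufb4 was at 0.87 without cko replicate 3, and lost its call in DESeq2 and with the muscle covariate, where it was at 0.26 (adjusted p over all alternatives 1.6e-04 to 0.484). All coding windows of Ndufb4 have an identical copy elsewhere in the genome, so that its counts are uncertain. Ndufb5 had 71.5, 59.9 and 66.3 in ctrl and 91.1, 82.0 and 91.0 in cko libraries. Its groups did not overlap, but its log2 fold change of 0.43 (SE 0.16, adjusted p = 0.0406 by edgeR) was called only without cko replicate 2 when libraries were left out in turn (adjusted p up to 0.152). It was 0.42 without cko replicate 3, and the call was also lost without a filter, with the replicate block, in DESeq2 and with the muscle covariate, where the change was 0.46 (adjusted p over all alternatives 8.54e-04 to 0.192). In mm9 Ndufc2 lies at chr7:104548513-104556312, Ndufb4 at chr16:37647256-37654539 and Ndufb5 at chr3:32635912-32650488.

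Core subunits of complex I were also called higher. Ndufs1, which holds iron-sulfur clusters at the entry of the electron path, had 159, 153 and 176 normalized counts in ctrl and 221, 218 and 189.9 in cko libraries. Ndufv2, an iron-sulfur subunit of the NADH-oxidizing module, had 233, 197 and 213 in ctrl and 277, 312 and 237 in cko libraries. Each cko library was above each ctrl library for both genes, although cko replicate 3 was close to the highest ctrl library. Both had a log2 fold change of 0.36, with SE 0.12 and adjusted p = 0.0148 for Ndufs1, and SE 0.11 and adjusted p = 0.0126 for Ndufv2 (edgeR). The call of Ndufs1 was lost without ctrl replicate 2 or cko replicate 1 (adjusted p up to 0.0796). That of Ndufv2 was lost without ctrl replicate 2 or 3 or cko replicate 2 (adjusted p up to 0.0917). The changes were 0.44 and 0.47 without cko replicate 3. Both calls were lost in DESeq2 and with the muscle covariate, where Ndufs1 was at 0.22 and Ndufv2 at 0.20 (adjusted p over all alternatives 4.72e-05 to 0.33 and 4.02e-05 to 0.347). Ndufs1 lies at chr1:63190170-63223396 and Ndufv2 at chr17:66428135-66450899 in mm9.

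Complex II, the succinate dehydrogenase, is the only complex with all of its subunits encoded in the nucleus. It summed to 357, 377 and 325 CPM in ctrl and 389, 428 and 386 CPM in cko libraries. All cko libraries were above all ctrl libraries, by a ratio of means of 1.14. Of its 4 genes 0 were called, 2 were higher and 0 lower at an unadjusted p of 0.05, and 0 were called by DESeq2, whereas total counts called 3 higher (Sdha, Sdhc and Sdhd). The median was 0.17 with all libraries and 0.23 without cko replicate 3, when 1 gene was called, and 0.11 with the muscle covariate, when 0 were called. Sdha, the flavoprotein, had 321, 358 and 304 normalized counts in ctrl and 374, 409 and 382 in cko libraries, with a log2 fold change of 0.24 (SE 0.099, adjusted p = 0.0558 by edgeR). Sdha was called by edgeR under total counts, with at least 10 counts in every library, and without ctrl replicate 2 or cko replicate 3 (0.26, adjusted p = 0.0374, over all alternatives 8.9e-05 to 0.262). The anchor subunit genes Sdhc and Sdhd had log2 fold changes of 0.087 and 0.32, and Sdhb, the iron-sulfur subunit, had -0.14, while total-count scaling gave Sdhb 0.13. None of these 3 was called with all 6 libraries under TMM. Genes of complex II, and Uqcrfs1 below, were likewise picked with their values in view.

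Complex III, the cytochrome bc1 complex, summed to 353, 332 and 397 CPM in ctrl and 467, 463 and 410.2 CPM in cko libraries. Here ctrl replicate 3 came close to cko replicate 3, but the groups did not overlap. All 8 members had positive log2 fold changes, with a median of 0.32, and 2 were called higher. Another 2 were higher at an unadjusted p of 0.05, and 0 were lower. DESeq2 called 1 higher and 0 lower. The fit without cko replicate 3 called 2 higher and 0 lower, with a median of 0.32. With the muscle covariate 5 were positive and 3 negative, 1 was called higher and 0 lower, and the median was 0.31.

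Uqcrh, the hinge protein that contacts cytochrome c1, had 138, 121 and 143 normalized counts in ctrl and 212, 209 and 168 in cko libraries. The groups were separate, with cko replicate 3 lowest among the cko libraries. The log2 fold change was 0.54 (SE 0.13, adjusted p = 8.31e-04 by edgeR), and the call remained with each library left out. It was 0.66 without cko replicate 3. With the muscle covariate it was 0.33 with an adjusted p of 0.132, and over all alternatives the adjusted p ran from 3.43e-06 to 0.132. Uqcrh lies at chr4:115739570-115747676 in mm9.

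Uqcr11, a small accessory subunit, was the only called member in which cko replicate 3 was the highest of the cko libraries. Its normalized counts were 36.5, 43.6 and 57.7 in ctrl and 67.1, 67.5 and 79.0 in cko libraries, with a log2 fold change of 0.60 (SE 0.19, adjusted p = 0.0156 by edgeR). The call was lost without ctrl replicate 1 or 2 or cko replicate 3 (adjusted p up to 0.0811, with a change of 0.51 without cko replicate 3) and in DESeq2, and was kept with the muscle covariate (adjusted p over all alternatives 4.74e-04 to 0.0979). Uqcrfs1, the Rieske iron-sulfur protein, had 98.5, 71.9 and 86.9 in ctrl and 105, 121 and 101 in cko libraries. These did not overlap, but the log2 fold change of 0.35 (SE 0.15) did not pass the test with all 6 libraries (adjusted p = 0.0787 by edgeR). It passed edgeR's test under total counts and without cko replicate 3 (0.41, adjusted p = 0.047, over all alternatives 0.00176 to 0.332). Uqcr11 lies at chr10:79865742-79869575 and Uqcrfs1 at chr13:30632177-30637231 in mm9.

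Complex IV, cytochrome c oxidase, summed to 509.5, 502 and 515 CPM in ctrl and 646, 768 and 583 CPM in cko libraries. Its ratio of means was 1.31, the largest of the 5 complexes as counted by symbol. Cox6c, an abundant member with means of 341 normalized counts in ctrl and 486 in cko libraries, enters this sum. A sum without Cox6c was not made, so that the ranking may rest on it. The ctrl libraries were nearly equal, and the cko libraries were all above them and spread widely. Of 9 members tested, 2 were called higher and 0 lower, 4 were higher and 0 lower at an unadjusted p of 0.05, and DESeq2 called 2 higher and 0 lower. The median log2 fold change was 0.27. Leaving out cko replicate 3, 4 were called higher and 1 lower, with a median of 0.31, and with the muscle covariate 1 higher and 0 lower, with a median of 0.20.

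Cox7a2, the widespread isoform of subunit 7a, had 127, 125 and 119 normalized counts in ctrl and 210.3, 209 and 170.0 in cko libraries. The ctrl libraries differed by little, and each cko library was far above them. The means were 124 ± 4.35 and 196 ± 22.8 (SD, n = 3), a 1.59-fold increase with a log2 fold change of 0.67 (SE 0.12, adjusted p = 6.28e-05 by edgeR). The change was 0.78 without cko replicate 3, and it remained called under all alternatives, with log2 fold changes from 0.48 to 0.93. Cox7a2 lies at chr9:79603048-79607660 in mm9.

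Cox6c, a small membrane-bound subunit, had 370.0, 308 and 346 normalized counts in ctrl and 478, 612 and 368 in cko libraries. The groups overlapped, since cko replicate 3 lay just below ctrl replicate 1. Its log2 fold change was 0.50 (SE 0.17, adjusted p = 0.0464 by edgeR). The call was lost without each of the ctrl libraries and without cko replicate 1, with log2 fold changes of 0.43 to 0.56 and an adjusted p of up to 0.146. It was kept without cko replicate 2 (0.32) and cko replicate 3 (0.68), and lost under RLE scaling and with the muscle covariate, where the change was 0.20 (adjusted p over all alternatives 4.96e-07 to 0.363). In Cox6c 52.8% of the coding windows have an identical copy elsewhere in the genome. The gene lies at chr15:35855641-35868001 in mm9.

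Isoforms of complex IV typical of striated muscle had few counts. Cox6a2 had 9, 8 and 19 raw counts in ctrl and 5, 1 and 32 in cko libraries, or 14.3, 8.72 and 16.4 and 4.14, 1.21 and 25.5 normalized counts. Its highest value was in cko replicate 3 and its lowest values were in cko replicates 1 and 2, which also had the lowest muscle marker levels. The log2 fold change was -0.23 with a large error (SE 0.92, adjusted p = 0.877 by edgeR), and without cko replicate 3 it was -2.12 (adjusted p = 0.00656). That value was the lowest of all alternatives, whose adjusted p ran up to 0.998, and the sign turned positive in 5 other alternatives. Cox8b had 3, 5 and 10 raw counts in ctrl and 4, 1 and 10 in cko libraries. Cox7a1 had 4, 7 and 8 in ctrl and 4, 4 and 6 in cko libraries. Both were below the filter on low counts. Cox6a2 lies at chr7:135348950-135349880 in mm9.

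The widespread partners of these isoforms are found in most tissues. Cox6a1 had 98.5, 146 and 127 normalized counts in ctrl and 152, 193 and 142 in cko libraries. The log2 fold change was 0.36 (SE 0.14, adjusted p = 0.0507 by edgeR), and it was called under 7 of 14 alternatives, namely RLE or total-count scaling, both other filters, the replicate block, and without ctrl replicate 2 or cko replicate 3, where it was 0.44 (adjusted p = 0.013, over all alternatives 5.33e-04 to 0.435). Cox8a had 54.0, 45.8 and 57.7 in ctrl and 38.1, 39.8 and 51.1 in cko libraries, with a log2 fold change of -0.28 (SE 0.20, adjusted p = 0.315 by edgeR). Its sign was negative under every alternative. Summed, the 3 widespread partners reached 144, 163 and 156 CPM in ctrl and 206, 227 and 187 CPM in cko libraries, whereas the 3 muscle isoforms reached 13.1, 11.2 and 16.4 CPM in ctrl and 5.54, 3.73 and 19.7 CPM in cko libraries. Among the cko libraries, replicate 3 thus had the lowest sum of the widespread partners and the highest sum of the muscle isoforms. This did not hold for each gene. Cox8a was highest in cko replicate 3, and Cox7a1 was not (3.31, 4.82 and 4.79 normalized counts in cko replicates 1 to 3).

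**Figure D4:**
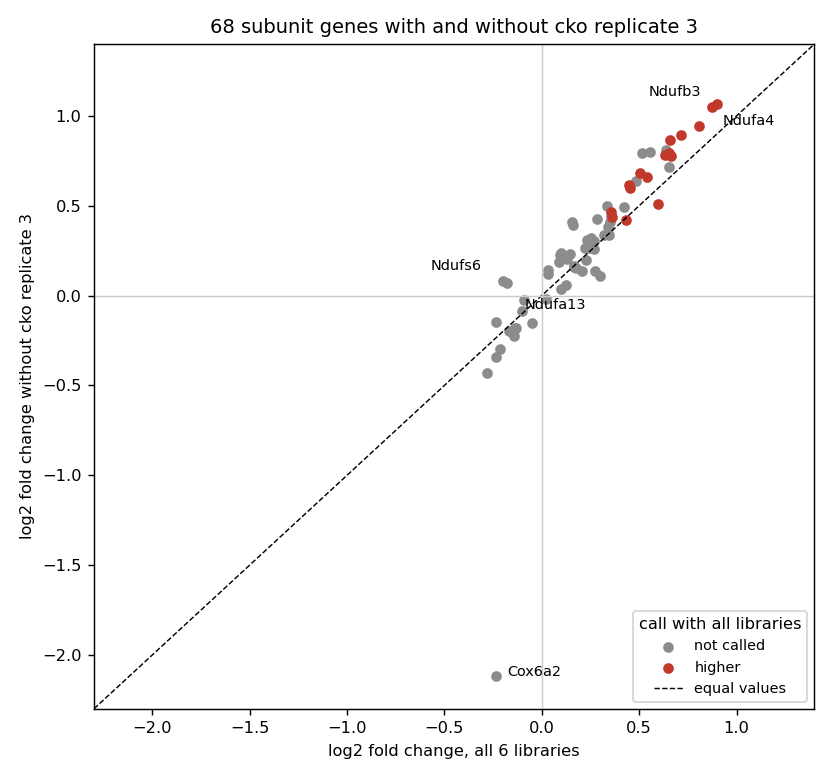
Log2 fold changes of 68 of the 69 members with all 6 libraries (horizontal axis) and without cko replicate 3 (vertical axis), coloured by the call with all libraries, with a dashed line of equal values. Most members called higher lie above the line, and Cox6a2 moved from -0.23 to -2.12.

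Complex V summed to 1532, 1406 and 1485 CPM in ctrl and 1731, 1863 and 1700.2 CPM in cko libraries. No cko library overlapped the ctrl range. Of 13 members tested, 3 were called higher and 0 lower, 3 were higher and 0 lower at an unadjusted p of 0.05, and DESeq2 called 1 higher and 0 lower. The median log2 fold change was 0.22. There were 3 higher and 0 lower calls without cko replicate 3, with a median of 0.26, and 1 higher and 0 lower with the muscle covariate, with a median of 0.21. The 5 genes of the catalytic F1 head gave 1 higher call and a median of 0.20, and the 4 genes of the peripheral stalk gave 1 higher call and a median of 0.087.

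Atp5g3 is 1 of 3 genes for the c subunit of the proton-driven rotor, and the only c subunit gene that passed the filter on low counts. Its normalized counts were 424, 333 and 348 in ctrl and 598, 653 and 455 in cko libraries. The groups did not overlap, with cko replicate 3 close to ctrl replicate 1. The means were 368 ± 48.7 and 569 ± 102 (SD, n = 3), with a log2 fold change of 0.63 (SE 0.12, adjusted p = 2.86e-04 by edgeR). It was 0.78 without cko replicate 3, and remained called under all alternatives, with log2 fold changes of 0.38 to 0.89. Atp5g3 lies at chr2:73746504-73749383 in mm9.

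Atp5e, the epsilon subunit of the F1 head, had 77.8, 95.9 and 99.0 normalized counts in ctrl and 141, 137 and 102 in cko libraries. Atp5o, the stalk subunit that confers sensitivity to oligomycin, had 84.2, 85.0 and 86.9 in ctrl and 108, 158 and 91.8 in cko libraries. Both had cko replicate 3 just above the highest ctrl library, and a log2 fold change of 0.45 (edgeR adjusted p = 0.0201 for Atp5e and 0.0358 for Atp5o). The call of Atp5e was lost without ctrl replicate 1, cko replicate 1 or cko replicate 2 (adjusted p up to 0.119). It was also lost in DESeq2 and with the muscle covariate, where Atp5e was at 0.15 (adjusted p = 0.641, over all alternatives 2.28e-04 to 0.641). That of Atp5o was lost without any of the ctrl libraries or cko replicate 2, where its change was 0.22 (adjusted p = 0.339 by edgeR, over all alternatives 8.77e-04 to 0.538), and in DESeq2 and with the muscle covariate (0.20). Without cko replicate 3, Atp5e was at 0.60 and Atp5o at 0.61. Exons of Atp5o overlap other annotated genes over 44.0% of their bases, so that its counts are uncertain. Atp5e lies at chr2:174286573-174289606 and Atp5o at chr16:91684643-91931932 in mm9.

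The catalytic beta subunit Atp5b had the most counts of all members. It had 1110.0, 994 and 1041 normalized counts in ctrl and 1128, 1201 and 1198 in cko libraries. Every cko library was above every ctrl library, but by little, and the log2 fold change of 0.17 (SE 0.086) was not called (adjusted p = 0.142 by edgeR). Atp5a1, the alpha subunit, also had a log2 fold change of 0.17 (SE 0.091, adjusted p = 0.17 by edgeR). Under total counts both were at 0.43 and were called (edgeR adjusted p over all alternatives 1.41e-04 to 0.364 for Atp5b and 3.12e-04 to 0.43 for Atp5a1). Thus Atp5a1 and Atp5b, which form the catalytic ring, had smaller fold changes than Atp5g3, and the difference between these genes was not tested. Atp5a1 and Atp5b were picked with their values in view.

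Of the 16 members called higher, 7 were also called with each of the 6 libraries left out in turn and by DESeq2, namely Ndufb3, Ndufa4, Ndufb10, Ndufc2, Uqcrh, Cox7a2 and Atp5g3. Under all 14 alternatives, 4 were called (Ndufa4, Ndufb10, Cox7a2 and Atp5g3). The fold changes of the 16 ran from 1.28 to 1.86. A member that was not called may still differ between the genotypes.

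In all, 10 members did not pass the filter on low counts, and 5 of them had 0 counts in every library, namely Atp5g2, Atp5l, Ndufs5, Cox7b2 and Cox8c. Atp5g1, another c subunit gene, had 0, 3 and 0 raw counts in ctrl and 9, 6 and 6 in cko libraries, and was called higher when no filter was used. Cox7c had 0, 1 and 1 in ctrl and 2, 1 and 2 in cko libraries, and Cox6b2 had 5, 9 and 6 in ctrl and 7, 5 and 8 in cko libraries. Reads from stretches that occur elsewhere in the genome cannot be placed uniquely, and the methods count uniquely mapped reads, so windows of 50 bases were compared with the whole of mm9. The share of coding windows with an identical copy elsewhere in mm9 was 100% for Atp5g2, Atp5l and Cox7c, 99.7% for Atp5g1 and 72.8% for Ndufs5. It was 0% for Cox7b2 and Cox8c, which are isoforms of restricted tissues, and for Cox6b2, Cox7a1 and Cox8b. How far such copies set the counts of the first 5 genes was not tested, and their values are uncertain. Among the 69 members tested the median share was 0%, and 6 were above 50%. For members called higher it was 100% in Ndufb4, 52.75% in Cox6c, 35.25% in Uqcr11 and 25.3% in Atp5o. It was 24.81% in Ndufb3, 17.65% in Uqcrh, 6.9% in Cox7a2 and 0% in the rest of them. The counts of the genes with copies are uncertain to that extent. Exons of 18 of the 69 members tested overlap another annotated gene. Among the called members these were Atp5o (44.0% of exonic bases), Ndufb6 (39.0%), Ndufb5 (7.81%), Cox6c (7.01%) and Ndufs1 (6.57%), whose counts are uncertain to that extent.

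**Figure D5:**
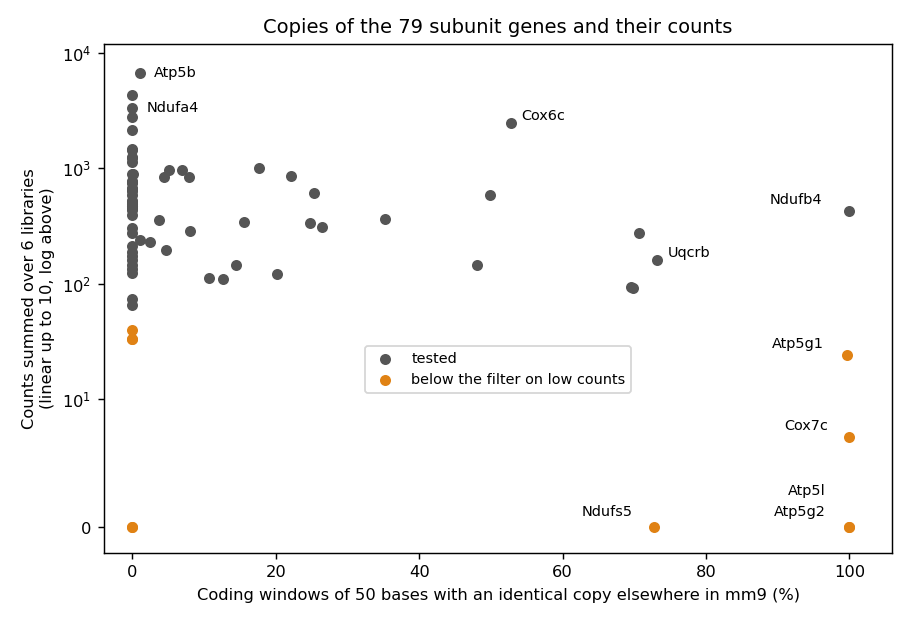
Counts summed over the 6 libraries (vertical axis, linear up to 10 and log above) against the share of coding windows of 50 bases with an identical copy elsewhere in mm9 (horizontal axis, in %), for members tested (grey) and below the filter on low counts (orange). Atp5g2, Atp5l, Cox7c and Atp5g1 lie near 100% with few or no counts, whereas Ndufb4 lies at 100% with 427 counts.

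Subunits with names outside the symbol pattern were tested as a separate list of 10 genes, of which 7 passed the filter. Cox7a2l, a factor that joins respiratory complexes, was called higher (0.40, SE 0.14, adjusted p = 0.0248 by edgeR), a call lost without ctrl replicate 1 or 3 or cko replicate 1 (adjusted p up to 0.17) and in DESeq2. Ndufa4l2, a paralog of Ndufa4 known to be induced in hypoxia, was called lower (-1.03, SE 0.31, adjusted p = 0.0101 by edgeR), a call lost without ctrl replicate 3 or cko replicate 1 (-0.60, adjusted p up to 0.259), under total counts, in DESeq2 and with the muscle covariate. DESeq2 called another gene of the list higher, 2010107E04Rik, a small protein of ATP synthase, which had a log2 fold change of 0.53 in edgeR (SE 0.23, adjusted p = 0.133, over all alternatives 4.35e-06 to 0.544). Under total counts 3 genes of the list were called higher. With this list added, 17 members were called higher and 2 lower. None of the symbols of mitochondrially encoded subunits looked for occur in the count tables, and these subunits were not analysed here.

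Other mitochondrial gene lists were set beside the subunits. Of 13 genes for carriers and protein import, 6 were called higher and 0 lower, 7 were higher and 0 lower at an unadjusted p of 0.05, and DESeq2 called 5 higher and 0 lower, with a median of 0.34, or 0.52 without cko replicate 3. Tomm20, a receptor of the outer membrane import pore, had 151, 110.03 and 142 normalized counts in ctrl and 225, 269 and 235 in cko libraries, with a log2 fold change of 0.86 (SE 0.12, adjusted p = 7.56e-07 by edgeR). Here cko replicate 3 lay between the other cko libraries. Vdac1, the outer membrane channel, and Tomm70a, another import receptor, had log2 fold changes of 0.51 and 0.54 (edgeR adjusted p = 2.11e-04 and 2.83e-04). Among 16 genes of pyruvate oxidation and the citric acid cycle, 4 were called higher and 2 lower (3 and 1 by DESeq2), with a median of 0.075, or 0.0092 without cko replicate 3. Mdh2 (malate dehydrogenase) rose by 0.44, whereas Pdha1, of the pyruvate dehydrogenase complex, fell by 0.58 on the log2 scale. With the muscle covariate Mdh2 was at 0.24 and was not called (edgeR adjusted p = 0.239, over all alternatives 5.94e-06 to 0.239). Of 32 assembly factors, 4 were called higher and 1 lower (2 and 0 by DESeq2), with a median of 0.13. Under total counts these lists gave 9 higher and 0 lower calls (carriers and import), 9 higher and 1 lower (pyruvate oxidation and the cycle, median 0.34) and 11 higher and 0 lower (assembly factors, median 0.40). The strongest assembly factors by p were Cox16 (1.01), Cox17 (1.20), a copper chaperone for complex IV, and Ndufaf7 (0.87), an assembly factor of complex I that lost its call without cko replicate 1 (adjusted p = 0.0627, over all alternatives 2.29e-04 to 0.38) and in DESeq2. With the muscle covariate all 3 calls were lost, with Cox16 at 0.72 (adjusted p over all alternatives 1.37e-05 to 0.0505), Cox17 at 0.66 (3.41e-05 to 0.225) and Ndufaf7 at 0.41 (edgeR and DESeq2).

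Of 12 regulators of mitochondrial biogenesis, 2 were called higher and 1 lower (2 and 0 by DESeq2), with a median of 0.041, or 0.073 without cko replicate 3. Under total counts 5 were higher and 0 lower, with a median of 0.31. Tfam, which packages and transcribes mitochondrial DNA, had 38.1, 43.6 and 56.8 normalized counts in ctrl and 98.5, 67.5 and 91.8 in cko libraries. Ppargc1a, a coactivator of genes for mitochondrial proteins, had 34.9, 26.1 and 32.7 in ctrl and 53.0, 57.9 and 55.9 in cko libraries. For both genes every cko library was above every ctrl library, and cko replicate 3 resembled the others. Their log2 fold changes were 0.88 (SE 0.19, adjusted p = 3.95e-04) and 0.83 (SE 0.21, adjusted p = 0.00238) by edgeR. Tfb1m, a methylase of mitochondrial ribosomal RNA, fell (-1.13, SE 0.40, adjusted p = 0.0264 by edgeR), and its call was lost without ctrl replicate 2 or 3 or cko replicate 1 or 2 (adjusted p up to 0.128), under total counts, in DESeq2 and with the muscle covariate (-0.75, adjusted p over all alternatives 0.0113 to 0.315).

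Other cell types of the nerve were described by their markers as well. Macrophage markers (10 tested) gave 0 higher and 7 lower calls, endothelial markers (7) 0 higher and 5 lower, fibroblast markers (6) 0 higher and 5 lower, and adipocyte markers (8) 0 higher and 4 lower. None of these lists had a gene higher at an unadjusted p of 0.05 or by DESeq2. DESeq2 called 3, 4, 4 and 4 of these lists' genes lower, in the same order. Under total counts, however, the macrophage list gave 2, the endothelial list 1 and the adipocyte list 3 lower calls, and 4 of the 6 fibroblast markers were negative with 2 lower calls and 1 higher call. Summed macrophage markers (Csf1r being the most abundant) were at 532, 483 and 513 CPM in ctrl and 355, 352 and 363 CPM in cko libraries. By staining, however, the paper counted more Iba1-positive macrophages in mutant nerves from the end of the second week on. The marker levels here are thus shares of RNA and not counts of cells. Endothelial markers (Cdh5 most abundant) were at 704, 631 and 723 CPM in ctrl and 448, 454 and 547 CPM in cko libraries. Fibroblast markers (Col3a1 most abundant) were at 53696, 52369 and 56817 CPM in ctrl and 40102, 38473 and 37976 CPM in cko libraries. Adipocyte markers (Fabp4 most abundant) were at 1299, 961 and 1646 CPM in ctrl and 994, 925 and 769 CPM in cko libraries. Of 7 erythroid markers, 6 had 0 counts in every library, and Alas2 was not called (-0.65, edgeR adjusted p = 0.143, over all alternatives 0.00274 to 0.871), except as lower without cko replicate 3 (-1.30). The part of these marker differences in the changes of the subunit genes was not tested.

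Promoters of the members were searched for motifs. In the RefSeq table of GRCm38.p6, 65 of the 79 members had a promoter of 250 bases before to 50 bases after the start. Both strands were searched for CGCATGCG (NRF1), CCGGAAGT (GABP and other ETS factors), AAGATGGC (YY1) and TCAAGGTCA (ERR). Each motif was found in 8, 5, 8 and 2 members (12.3%, 7.69%, 12.3% and 3.08%), compared with 1.91%, 4%, 2.88% and 0.407% of all 27025 promoters. At least 1 motif was found in 33.8% of the members' promoters and in 8.76% of all promoters. Members' promoters were also richer in GC (median 57.3%, against 52.7%). Of 14 called-higher members with a promoter in the table, Atp5g3, Uqcr11 and Uqcrh held a motif, and their promoters are printed below 5′ to 3′, with the motif in capitals. The others held none of these letters. In the order above, the motifs were in 1, 2, 0 and 1 of these 14 promoters. Of the 51 promoters of the other members, 7, 3, 8 and 1 held them. The motif of Atp5g3 is the ERR motif in reverse complement, 52 bases before the start (chr2:73911277-73911576, minus strand). Uqcr11 holds the ETS motif 66 bases and the NRF1 motif 5 bases before the start (chr10:80406772-80407071, minus strand), and Uqcrh the ETS motif in reverse complement, 11 bases before the start (chr4:116075021-116075320, minus strand). A match describes the sequence and does not show binding.
Atp5g3: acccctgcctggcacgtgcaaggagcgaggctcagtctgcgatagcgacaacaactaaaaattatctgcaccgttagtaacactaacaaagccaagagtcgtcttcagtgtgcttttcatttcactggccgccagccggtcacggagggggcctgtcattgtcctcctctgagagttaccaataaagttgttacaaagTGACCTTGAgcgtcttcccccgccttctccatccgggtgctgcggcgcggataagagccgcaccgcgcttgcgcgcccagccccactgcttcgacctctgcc
Uqcr11: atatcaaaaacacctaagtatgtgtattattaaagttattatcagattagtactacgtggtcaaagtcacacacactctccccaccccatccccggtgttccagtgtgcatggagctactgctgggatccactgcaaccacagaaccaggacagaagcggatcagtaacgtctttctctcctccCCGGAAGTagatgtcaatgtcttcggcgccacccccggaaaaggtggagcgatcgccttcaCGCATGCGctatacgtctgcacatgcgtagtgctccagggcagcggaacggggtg
Uqcrh: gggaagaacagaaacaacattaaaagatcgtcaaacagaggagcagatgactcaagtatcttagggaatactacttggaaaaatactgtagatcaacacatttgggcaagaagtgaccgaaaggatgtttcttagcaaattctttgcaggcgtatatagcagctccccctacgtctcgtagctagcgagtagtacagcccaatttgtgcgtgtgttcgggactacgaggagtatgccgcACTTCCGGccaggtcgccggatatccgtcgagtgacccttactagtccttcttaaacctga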

How the data were processed

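RNA-Seq counts of 6 sciatic nerve libraries, 3 ctrl and 3 cko, were analysed. The authors aligned reads to mm9, counted them per gene with HTSeq and deposited raw counts, which are whole numbers without normalization. The submitters' processing notes name Bowtie2 2.1.0, whereas the methods name TopHat and a count of uniquely mapped reads only. The annotation and the strand setting of the counting are not given in the sources used here. Of the entries, 0 name no gene. Labels give separate biological replicates, and no pair within a genotype was alike to within sampling noise (chi-square per degree of freedom 1.85 to 5.6).

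The tests used edgeR 4.0.16 under R 4.3.3 (filterByExpr, TMM, robust quasi-likelihood fit, genotype as the only term, Benjamini-Hochberg adjustment over all 11371 genes). Standard errors are the log2 fold change divided by the root of the F statistic. DESeq2 1.42.0 was an alternative, as were RLE or total-count scaling, other filters, a replicate block, a muscle covariate (log2 summed CPM of the muscle markers) and each library left out. Depth limited precision, since 1 read was worth between 0.411 and 0.818 CPM.

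Genes were named by rule, as members past the study's limits, the 5 members with the largest positive and negative log2 fold change among those called, the muscle isoforms of complex IV with their widespread partners, members below the filter, the 3 genes of each list with the smallest p among those called, the 3 most abundant muscle markers and Rnf40. Others named are marked in the text, and some genes that the rule gives are not reported here. Members and lists were chosen with earlier results of these data known. Windows of 50 bases along 1 transcript per member (GENCODE vM1, with mm9 coordinates counted from 1) were searched in mm9 with Python 3.11.15. Promoters are from RefSeq GRCm38.p6, and figures were drawn with matplotlib 3.10.9.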

Additional observations from a re-analysis of the deposited data

How the results depend on the processing

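With all 6 libraries 16 members were called higher and 1 lower, 3 passed the study's limits, and the median log2 fold change was 0.24. Scaling by total counts gave 39 higher, 0 lower, 11 past the limits and a median of 0.51. DESeq2 gave 8 higher and 0 lower without and with a fold-change prior. The muscle covariate gave 5 higher (7.25%, against 10.2% of all genes), 2 lower and 0 past the limits. In that fit genotype and muscle level overlap, since 2 of 3 cko libraries lay below all ctrl libraries. Adding the subunits outside the symbol pattern gave 2 lower. Leaving out each library in turn gave 11 to 20 higher, 0 (without ctrl replicate 3) to 2 lower (without cko replicate 3), 0 (without cko replicate 2) to 5 past the limits (without cko replicate 3), and medians of 0.20 to 0.28. Of all genes, these fits called 11.1% to 16.7% higher and 12.4% to 17.3% lower, and 937 to 1176 genes passed the limits. Fits with a library left out rest on fewer samples. For the other shifts the cause was not tested.

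Of the 69 members, 27 turned sign under at least 1 alternative, of which 0 were called with all 6 libraries, and 24 were negative with the muscle covariate, against 15. The 32 single genes followed here included 4 of these. Cox6a2 changed to 0.033 under total counts and 0.83 with the muscle covariate, and ran from -2.12 to 0.19 with libraries left out, 0.00437 and 0.18 among these (without ctrl replicate 3 and cko replicate 2). Ndufa13 changed to 0.083 under total counts and ran from -0.36 to 0.068 with libraries left out. Sdhb changed to 0.13 under total counts and ran from -0.29 to 0.013. Sdhc changed to -0.043 with the muscle covariate and ran from -0.018 to 0.19. Of the other values of these 32 genes under the alternatives, 345 kept direction and side of the threshold, 65 were no longer called and 26 were newly called.

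A fit with the replicate number as a block (replicate block) called 16 members higher and 1 lower. No shared deviation of same-numbered libraries was seen, as their deviations correlated at -0.095, -0.015 and -0.062. With so few libraries this cannot show whether the samples were paired. Over all genes the fit with the replicate block called 1727 higher and 1837 lower, against 1757 and 1841. Without Ndufa4, added after seeing the data, the ratio of the summed CPM of complex I was 1.15, against 1.25. Genes with a few reads per library have no usable estimate at totals of 1317167 to 2468765 counts.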
